A study of Mus musculus with 4 samples.

Results

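The pyruvate dehydrogenase complex and the enzymes that switch it off and on were followed through 10 genes: the kinase genes Pdk1, Pdk2, Pdk3 and Pdk4, the phosphatase genes Pdp1 and Pdp2, and the subunit genes Pdha1, Pdhb, Dlat and Pdhx. The members were found by gene symbol among the 54838 genes that each file lists, and each symbol occurred there 1 time. Of the 10, 9 had enough counts to be tested together with 12510 genes in all, and Pdk3 had none. The cells were Hepa1-6, a mouse hepatocellular carcinoma line. Libraries labelled NC came from cells wild type for Acvr2a, and libraries labelled KO from cells in which Acvr2a, the gene of an activin type II receptor, was knocked out, with 2 libraries in each group. The labels name no treatment and no time point. The design text speaks of knockout subclones. It does not say whether KO 1 and KO 2 are separate subclones, or how the NC cells were derived. The p-values below therefore rest on the spread between these libraries only. For each gene that spread was drawn toward the spread of all genes tested (25.8 prior degrees of freedom). A feature of 1 clone cannot be told apart from the knockout. The series title places the comparison within lactate production and glycolysis.

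The complex sits in the mitochondrial matrix and turns pyruvate into acetyl-CoA, which commits carbon from glucose to the citrate cycle or to fatty acid synthesis. Pyruvate dehydrogenase kinases phosphorylate the E1 alpha subunit and stop the reaction, so that pyruvate is left for lactate dehydrogenase or for pyruvate carboxylase, and the phosphatases remove the phosphate again. In liver the kinase isoenzymes are known to respond to fasting, fatty acids, insulin and low oxygen, and Pdk1 is a classical target of hypoxia-inducible factor in tumour cells.

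Library totals lay between 11597923 and 13910582 counts, so that 3 counts, the limit that a count of 0 allows, correspond to between 0.216 and 0.259 CPM, the count scaled to the library's TMM-adjusted total. Of 10 hepatocyte and hepatoma markers 8 passed the filter, with summed levels of 3390 to 3630 CPM in NC and 3730 to 3770 CPM in KO. Among them Alb and Trf rose, Afp and Hnf4a fell, and Ttr had at most 3 counts in all. Leukocyte markers summed to at most 4.33 CPM and endothelial markers to at most 1.06 CPM in any library, with Cd3e and Cdh5 at 0. A stromal list reached 1470 to 1480 CPM in NC and 1620 to 1690 CPM in KO, nearly all of it Dcn, while Lrat and Col3a1 were at 0. In that list Des rose from a mean of 3.88 to 9.45 CPM and Col1a1 from 0.444 to 2.96 CPM, and the part of this shift in the results below was not tested. Muscle markers summed to 27.2 to 31.5 CPM in NC and 29 to 30.2 CPM in KO, mostly Tnnt2. Acvr2a RNA did not separate the groups: NC 1 and NC 2 held 81.0 and 108.4 expected counts, KO 1 and KO 2 held 74.7 and 97.4 (log2 fold change -0.21, SE 0.20, edgeR quasi-likelihood adjusted p = 0.433), and 446 of its exonic bases are shared with the oppositely transcribed Orc4. The group names therefore rest on the labels alone. Across all genes tested 37.9% passed an adjusted p of 0.05, 19.7% higher and 18.2% lower in KO. On the log2(TPM + 1) scale 2158 genes passed, 68% of them higher, against 51.9% in the count fit.

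Kinase genes rose in KO while phosphatase and subunit genes fell or did not pass the test. All 3 kinase genes with counts were higher, Pdk2 by 3.50-fold, Pdk1 by 1.81-fold and Pdk4 by 1.81-fold. Pdp2 fell to 0.707 of its NC level, and Pdhx and Pdhb fell to 0.753 and 0.838. Pdp1, Pdha1 and Dlat did not pass. This made 3 of 9 tested members higher, where 19.7% of all genes tested were called higher, and 3 of 9 lower, where 18.2% were. The median log2 fold change over the 9 was -0.10, beside -0.0037 over all genes tested. In 8 of 9 members the CPM ranges of NC and KO were apart, as they were in 69.4% of all genes tested: 4 members had KO above NC (34.8% of all) and 4 had KO below NC (34.7%). The called-higher count was 2 with DESeq2, without NC 1 and in both fits on deposited TPM. The called-lower count was 1 with DESeq2 and 0 in the fits on TPM. Over all genes tested, called-lower genes also went down, from 2282 to 1554 with DESeq2. They numbered 691 and 672 in the fits on deposited TPM and 1268 on TPM with 1 length per gene. Called-higher genes over all went from 2459 to 1663 with DESeq2 and to 1467 and 1427 in the fits on deposited TPM.

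**Figure D1:**
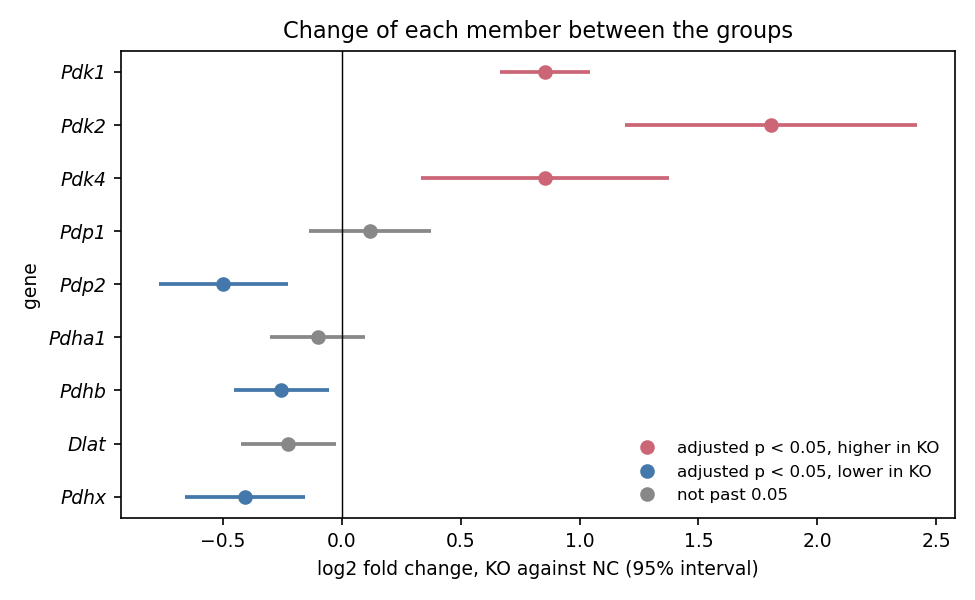
Log2 fold change of each tested member between KO and NC (x axis; edgeR quasi-likelihood) with its 95% interval, by gene (y axis). The kinase genes Pdk1, Pdk2 and Pdk4 lie to the right of 0, Pdp2, Pdhb and Pdhx to the left, and the intervals of Pdp1 and Pdha1 include 0; Dlat has an interval below 0 and an adjusted p of 0.0681.

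Pdk1 and Pdk2 passed under every alternative. Pdp2 had the lowest edgeR adjusted p of the members that fell, but it passed in none of the fits on TPM. On these grounds the stretches upstream of Pdk1, Pdk2 and Pdp2 are shown. Each is the 250 bases before the RefSeq start on GRCm38.p6, read 5′ to 3′ on the gene's strand. The last 21 bases of the Pdp2 stretch lie inside its GENCODE transcript. Capitals mark ACGTG and GCGTG, the core sequences that hypoxia-inducible factors can bind, on either strand (as CACGT and CACGC on the other). The palindrome CACGTG, an E-box, is read as ACGTG on both strands and counts as 2 matches.
Pdk1, chr2:71872974-71873223, plus strand: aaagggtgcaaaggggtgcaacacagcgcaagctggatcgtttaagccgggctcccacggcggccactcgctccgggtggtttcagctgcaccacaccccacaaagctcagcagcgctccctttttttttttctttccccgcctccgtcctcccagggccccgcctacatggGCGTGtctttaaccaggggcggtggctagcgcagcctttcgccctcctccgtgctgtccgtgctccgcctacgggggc
Pdk2, chr11:95041372-95041621, minus strand: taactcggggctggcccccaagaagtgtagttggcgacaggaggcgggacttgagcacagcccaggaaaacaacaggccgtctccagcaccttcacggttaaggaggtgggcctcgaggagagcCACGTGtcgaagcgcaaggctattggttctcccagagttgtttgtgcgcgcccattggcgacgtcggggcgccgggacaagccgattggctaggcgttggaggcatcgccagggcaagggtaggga
Pdp2, chr8:104591222-104591471, plus strand: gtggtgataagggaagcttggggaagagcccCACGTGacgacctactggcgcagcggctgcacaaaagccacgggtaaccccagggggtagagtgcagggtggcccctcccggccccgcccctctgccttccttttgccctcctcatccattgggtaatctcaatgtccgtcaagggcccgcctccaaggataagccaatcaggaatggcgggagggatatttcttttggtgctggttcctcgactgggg
Pdk1 held 1 GCGTG in this window and no ACGTG, as did Pdk4, whose stretch is not shown. Pdk2 and Pdp2, which moved in opposite directions, each held 1 CACGTG and no GCGTG. RefSeq entries were found for 9 of the 10 members, Pdp1 being the exception. Of these 9, 4 held ACGTG (16.6% of all 32851 promoter entries), 6 held GCGTG (28.2%) and 2 held CACGTG (6.02%); 8 held ACGTG or GCGTG (38.6%). Pdk3 held 4 matches of the ACGTG or GCGTG kind, the most of the members, and gave no reads, and Dlat held none. The percentages are over 32851 entries of 27025 gene names, while each member is 1 entry, and base composition was not matched. A match describes letters in this window and shows neither binding nor a cause.

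Pdk1 (chromosome 2, 71873224 to 71903858, plus strand; GRCm38 coordinates and gene models from GENCODE M21 here and below) encodes the kinase isoenzyme that can phosphorylate all of the known sites of E1 alpha. It was the most abundant kinase gene in every library. NC 1 and NC 2 gave 109 and 114 CPM, KO 1 and KO 2 gave 196 and 207 CPM. Both KO libraries were above both NC libraries by far more than either pair differed within itself. The mean (± SD, n = 2) was 111 ± 3.9 CPM for NC and 202 ± 7.9 CPM for KO. The log2 fold change was 0.85 (SE 0.092, 95% interval 0.67 to 1.04, edgeR quasi-likelihood adjusted p = 5.08e-08). It passed under all 12 alternatives, with values from 0.81 to 0.91.

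Pdk2 (chromosome 11, 95026258 to 95041354, minus strand) encodes the isoenzyme that is widely expressed and is the main form in normal liver. In these cells it was scarce. Each NC library held 22 counts, KO 1 held 78 and KO 2 held 86. The NC libraries were alike and the KO libraries were alike, with a wide gap between them. Its level (mean ± SD, n = 2) was 1.76 ± 0.24 CPM for NC and 6.14 ± 0.32 CPM for KO, a log2 rise of 1.81 (SE 0.30, 95% interval 1.19 to 2.42, edgeR quasi-likelihood adjusted p = 1.90e-05). This was the largest fold change among the tested members, and it passed under all 12 alternatives.

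Pdk4 (chromosome 6, 5483351 to 5496309, minus strand) encodes the isoenzyme induced by fasting and fatty acids through PPAR and FOXO factors. NC 1 held 33 counts and NC 2 held 51, and each KO library held 80. Both KO libraries were above both NC libraries, which differed from each other more than the KO libraries did. Its level (mean ± SD, n = 2) was 3.29 ± 0.55 CPM for NC and 6.00 ± 0.11 CPM for KO. The log2 fold change was 0.85 (SE 0.25, 95% interval 0.33 to 1.38, edgeR quasi-likelihood adjusted p = 0.00880). The call was lost with DESeq2 (adjusted p = 0.0660) and without NC 1 (0.70, edgeR adjusted p = 0.0759), and on the TPM scale the difference was 0.0079.

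The contrast between count and TPM for Pdk4 went with the deposited gene length, which averages over the annotated transcripts by their estimated abundance. NC 1 and NC 2 had lengths of 1391 and 2196 bases, KO 1 and KO 2 had 3484 and 2721. In KO 1 it equalled the length of the longest coding transcript, 3484 bases, and in the NC libraries it was shorter. The TPM values, which divide by it, were 2.68 and 2.11 for NC, 2.17 and 2.65 for KO, and overlapped. With 1 length per gene in all libraries, the log2(TPM + 1) difference was 0.65 (limma adjusted p = 0.00795), an alternative chosen after the lengths had been seen. Lengths estimated from 33 to 80 reads are imprecise, and which transcript was in use was not tested.

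**Figure D2:**
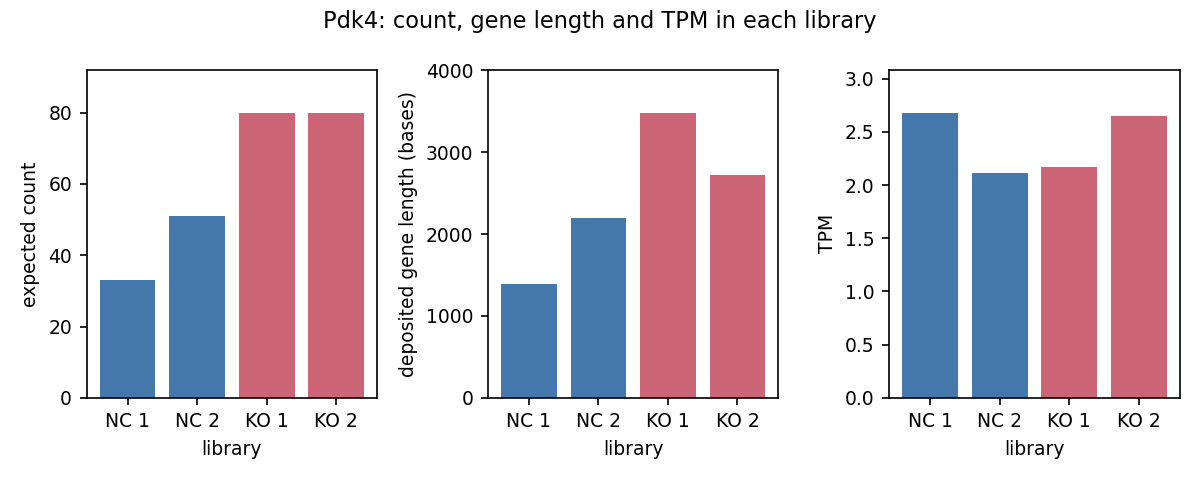
Expected count, deposited gene length in bases and TPM of Pdk4 (y axes of the panels) in each of the 4 libraries (x axis). Counts are 33 and 51 in NC against 80 and 80 in KO, the lengths rise in the same direction, and the TPM values of the groups overlap.

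Pdk3 (chromosome X, 93764607 to 93832201, minus strand), which encodes an isoenzyme best known from testis, kidney and brain, had 0 counts in each of the 4 libraries. A count of 0 allows up to 3 counts per library, or 0.259 CPM in the shallowest. No difference between the groups could be measured for it at this depth.

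Phosphatase genes did not move with the kinases. Pdp2 (chromosome 8, 104591451 to 104599026, plus strand) encodes the insulin-responsive phosphatase catalytic subunit of liver and fat, with 27.9 and 26.3 CPM in NC 1 and NC 2 beside 17.3 and 21.0 CPM in KO 1 and KO 2. Both KO libraries were below both NC libraries, KO 1 the lower of them. The mean (± SD, n = 2) was 27.1 ± 1.1 CPM for NC and 19.1 ± 2.6 CPM for KO. The log2 fold change was -0.50 (SE 0.13, 95% interval -0.77 to -0.23, edgeR quasi-likelihood adjusted p = 0.00380). It passed in every fit on counts and in none of the 3 fits on TPM, where the adjusted p (limma) lay between 0.0759 and 0.160.

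Pdp1 (chromosome 4, 11958184 to 11966452, minus strand) encodes the calcium-activated catalytic subunit found in muscle and other tissues. NC 1 and NC 2 gave 24.8 and 22.5 CPM, KO 1 and KO 2 gave 25.0 and 26.3 CPM. In CPM the KO libraries lay above the NC libraries by less than the NC libraries differed. In deposited TPM they lay further apart, at 12.69 and 12.17 in NC beside 14.84 and 14.78 in KO. That difference did not pass either (limma on log2(TPM + 1), adjusted p = 0.258). The log2 fold change was 0.12 (SE 0.13, edgeR quasi-likelihood adjusted p = 0.479), with a 95% interval of -0.14 to 0.38 that leaves out a rise by 1.5-fold. Its deposited length was 2317 and 2303 bases for NC, 2193 and 2215 bases for KO, within a gene whose 6 transcripts are all protein-coding and run from 1881 to 4201 bases.

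Of the 4 subunit genes, Pdhx and Pdhb fell and Dlat and Pdha1 did not pass. Pdhx (chromosome 2, 103021075 to 103073513, minus strand) encodes the E3-binding protein that anchors dihydrolipoamide dehydrogenase to the core. NC 1 and NC 2 gave 31.7 and 29.2 CPM, KO 1 and KO 2 gave 24.3 and 21.5 CPM. Both KO libraries were below both NC libraries. The mean (± SD, n = 2) was 30.4 ± 1.8 CPM for NC and 22.9 ± 2.0 CPM for KO (log2 fold change -0.41, SE 0.12, edgeR quasi-likelihood adjusted p = 0.00991). The call was lost with DESeq2 (adjusted p = 0.0560), without NC 1 (edgeR adjusted p = 0.0651), without KO 2 (0.0837) and in the fits on TPM.

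Pdhb (chromosome 14, 8165996 to 8173025, minus strand) encodes the E1 beta subunit. NC 1 and NC 2 gave 86.6 and 76.8 CPM, KO 1 and KO 2 gave 70.0 and 66.8 CPM. The groups did not overlap, but NC 2 lay closer to KO 1 than to NC 1. The difference, -0.26 in log2 fold (SE 0.097, 95% interval -0.45 to -0.057), passed narrowly (edgeR quasi-likelihood adjusted p = 0.0386). It did not pass with DESeq2 (0.105), without NC 1 (edgeR adjusted p = 0.323), without KO 2 (0.141) or in the fits on TPM. A processed pseudogene, Gm6123, is 97.0% identical to Pdhb over 1079 bases and took 5 counts over the 4 libraries, and reads shared between them cannot be told apart.

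Dlat (chromosome 9, 50634633 to 50659780, minus strand) encodes the E2 acetyltransferase that forms the core. Its levels were 60.3 and 63.2 CPM in the NC pair beside 53.5 and 52.1 CPM in the KO pair. The KO libraries were below the NC libraries. With a log2 fold change of -0.23 (SE 0.097, 95% interval -0.43 to -0.026) and an unadjusted p of 0.0281 it did not pass after adjustment (edgeR quasi-likelihood adjusted p = 0.0681), and it passed under none of the 12 alternatives.

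Pdha1 (chromosome X, 160122209 to 160138413, minus strand) encodes the E1 alpha subunit, which carries the serines that the kinases phosphorylate. The NC pair gave 78.3 and 72.6 CPM, KO 1 gave 66.6 CPM and KO 2 gave 73.8 CPM. KO 2 lay between the NC libraries, so the groups overlapped. The log2 fold change was -0.10 (SE 0.097, 95% interval -0.30 to 0.096, edgeR quasi-likelihood adjusted p = 0.430). Of its exonic sequence 603 bases overlap Map3k15 on the other strand, a gene with 1.01 counts in total, and of the members Pdha1 was the 1 with a count that was not whole (996.99 in KO 2).

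**Figure D3:**
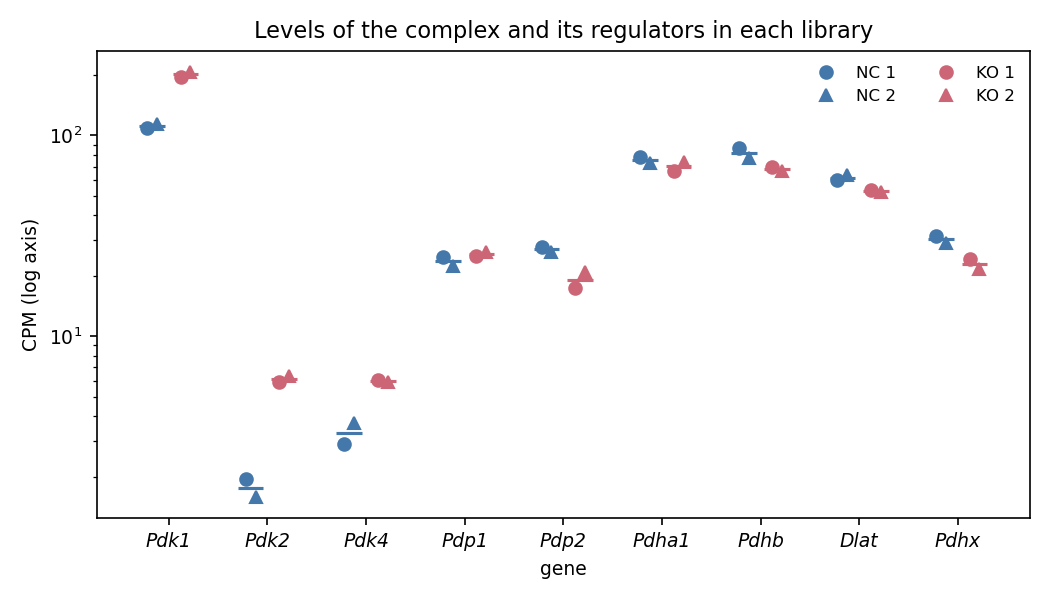
Level of each member with counts (CPM, log axis) in the 4 libraries; circles are replicate 1, triangles replicate 2 and bars the group means. Pdk1 stands near 111 CPM in NC and 202 CPM in KO, Pdk2 and Pdk4 below 7 CPM in every library, and only Pdha1 has groups that overlap.

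Levels of different members were compared per length, in TPM. In NC the order was Pdhb (68.1 and 71.9 TPM), Pdk1 (46.6 and 61.5), Pdhx (35.2 and 36.4), Pdha1 (31.4 and 34.1), Dlat, Pdp1, Pdp2, Pdk4, Pdk2 and Pdk3, and no neighbours in this order overlapped. In KO Pdk1 came before Pdhb, with 100.5 and 92.1 TPM against 63.4 and 57.7 TPM, Pdha1 and Pdhx overlapped, and Pdk2 came before Pdk4. Several places in this order depended on the length used, that of Pdk1 among them. Its deposited length was between 2319 and 2738 bases, while its only protein-coding transcript has 5185 bases and 7 shorter non-coding ones are annotated. With CPM divided by the length of the longest coding transcript, Pdk1 was the third of the members in NC and the second in KO, below Pdhb in every library, at 38.9 against 45.2 CPM per kilobase in KO. On that scale Pdha1 was the second in NC and the third in KO, and Pdhx was the fifth in both groups, below Dlat, at 12.1 against 15.3 CPM per kilobase in NC.

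Pdk1 supplied most of the kinase RNA in both groups. Its share of the summed kinase TPM was 92.4% and 95.3% in NC and 94.7% and 93.7% in KO, which overlapped. With 1 length per gene it was 95.3% and 95.2% in NC and 93.6% and 93.7% in KO, lower in both KO libraries. The share of Pdk2 was 2.26% and 1.38% in NC and 3.22% and 3.59% in KO. The share of Pdk4 was 5.32% and 3.27% in NC and 2.05% and 2.70% in KO, a lower share that was not kept with 1 length per gene, where it was 2.69% and 3.24% in NC and 3.06% and 2.83% in KO. Summed kinase TPM was 50.4 and 64.5 in NC and 106.1 and 98.3 in KO. Summed phosphatase TPM was 18.1 and 17.6 in NC and 18.5 and 19.1 in KO. This small rise was not kept per coding length. There mean Pdp1 went from 5.625 in NC to 6.10 CPM per kilobase in KO, and mean Pdp2 from 4.76 to 3.36. The ratio of kinase to phosphatase TPM was 2.78 and 3.67 in NC and 5.73 and 5.16 in KO. Per coding length it was 2.10 and 2.39 in NC and 4.70 and 4.48 in KO, so the groups were apart on both scales. These ratios are descriptions of RNA levels, and with 2 libraries a group an exact test of 1 of them cannot reach 0.05.

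Within the complex, the ratio of E1 alpha to E1 beta RNA (Pdha1 over Pdhb, TPM) was 0.474 and 0.461 in NC and 0.467 and 0.544 in KO, which overlapped; per coding length it was 0.481 and 0.502, then 0.505 and 0.587, which did not. Pdhx over Dlat was 1.99 and 1.95 in NC and 1.87 and 1.62 in KO, lower in both KO libraries. Per coding length it was 0.846 and 0.743 in NC, then 0.731 and 0.663 in KO, so Pdhx was above Dlat in TPM and below it on this scale. Pdk1 over Pdha1, the kinase beside its substrate, was 1.37 and 1.96 in NC and 3.40 and 2.93 in KO. Per coding length that ratio was 0.763 and 0.865 in NC, then 1.62 and 1.54 in KO, so in NC the kinase was above its substrate in TPM and below it on this scale. Between the phosphatases, Pdp1 over Pdp2 was 2.33 and 2.26 in NC and 4.03 and 3.46 in KO, so the phosphatase RNA of KO held relatively more of the calcium-activated form.

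**Figure D4:**
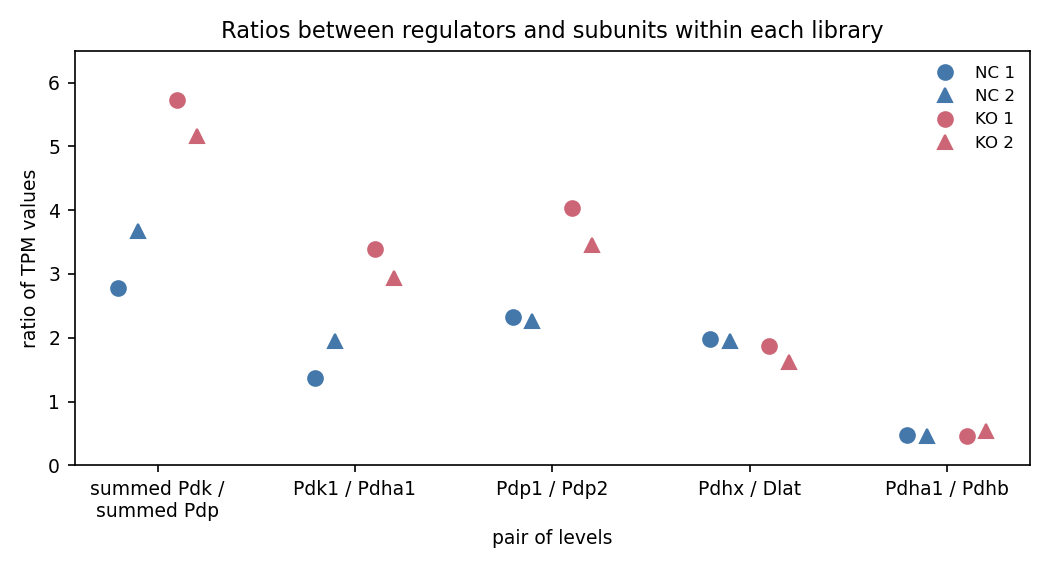
Ratio of TPM values (y axis) for 5 pairs of levels (x axis) in each library; circles are replicate 1 and triangles replicate 2. The kinase to phosphatase ratio is 2.78 and 3.67 in NC and 5.73 and 5.16 in KO, while Pdha1 over Pdhb stays between 0.461 and 0.544.

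By Euclidean distance over the 4 libraries of log2 CPM deviations from the gene's own mean, the genes nearest to Pdk1 were Wwox (distance 0.035), Pik3c2b (0.036), Cetn4 (0.043), Jarid2 (0.044) and Lrpap1 (0.044), predicted genes left out, where the median distance of all genes was 0.91. Their log2 fold changes lay between 0.85 and 0.89. With 4 libraries in 2 groups this likeness shows little more than an equal step between the groups.

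Genes that complete or assemble the complex were examined as a list of 14, of which 13 were tested. None was called higher and 2 were called lower, beside 19.7% and 18.2% of all genes tested, with a median log2 fold change of -0.026. Dld, which encodes the E3 dihydrolipoamide dehydrogenase shared with the other 2-oxoacid dehydrogenases, had means (± SD, n = 2) of 36.7 ± 1.2 CPM for NC and 36.3 ± 1.0 CPM for KO (log2 fold change -0.017, 95% interval -0.24 to 0.20). Those called were Glrx5 (log2 fold change -0.50, SE 0.11, edgeR quasi-likelihood adjusted p = 8.17e-04) and Bola3 (-0.50, SE 0.14, edgeR adjusted p = 0.00499), which act in iron-sulfur cluster delivery, a step that lipoic acid synthesis needs. Both calls were lost on deposited TPM, and that of Bola3 without KO 2 (adjusted p = 0.0548). Lias, which makes the lipoyl group, had a log2 fold change of -0.13 (edgeR adjusted p = 0.557). Pdha2, the testis form of E1 alpha, had 0 counts.

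Pyruvate supply and the other routes out of pyruvate were covered by 16 genes, of which 12 were tested, 4 higher and 1 lower, where 19.7% and 18.2% of all genes tested were called, with a median of 0.00051. Mpc1 and Mpc2 encode the mitochondrial pyruvate carrier that feeds the complex, and their log2 fold changes were -0.18 (SE 0.18, edgeR adjusted p = 0.459) and -0.38 (SE 0.16, edgeR adjusted p = 0.0560). Mpc2 passed in 4 of the 12 alternatives. Pcx, pyruvate carboxylase, which sends pyruvate to oxaloacetate, rose by 0.78 on the log2 scale, with means (± SD, n = 2) of 10.6 ± 1.1 CPM for NC and 18.1 ± 0.32 CPM for KO (SE 0.15, edgeR adjusted p = 1.95e-04), and passed under all 12. Gpt2, the mitochondrial alanine transaminase, rose by 0.46 (SE 0.12, edgeR adjusted p = 0.00332), with the call lost on deposited TPM. Bsg, the chaperone of monocarboxylate transporters, rose by 0.90. Pkm, the more abundant of the pyruvate kinase genes here, had 0.27 (edgeR adjusted p = 0.0290), a call kept in 7 of 12 alternatives. Pkm shares 767 exonic bases with Gm49759 on the same strand. Me1, cytosolic malic enzyme, had -0.29 (edgeR adjusted p = 0.0136) and passed in 7 of 12. Ldha, whose product competes with the complex for pyruvate, had 0.050 (SE 0.099, edgeR adjusted p = 0.729).

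Transcription factors known to act on kinase genes formed a list of 18, of which 17 were tested. Of these 4 were higher and 2 lower, beside 19.7% and 18.2% of all genes tested, with a median of 0.084. Hif1a, whose protein drives Pdk1 and is controlled mainly by its stability, had a log2 fold change of -0.11 (SE 0.093, edgeR adjusted p = 0.381). Foxo3 (0.53, SE 0.092, edgeR adjusted p = 5.31e-05), Foxo1 (0.34, SE 0.13, edgeR adjusted p = 0.0381), Ppard (0.48, SE 0.092, edgeR adjusted p = 1.99e-04) and Cebpb (0.57, SE 0.11, edgeR adjusted p = 1.03e-04) rose. The call of Foxo1 was lost with DESeq2, with no filter, in the 3 fits on TPM, without NC 1 and without KO 2. Foxo factors and Ppard are known as activators of Pdk4, and their part in its level here was not tested. Ppargc1a, their coactivator, fell, with means (± SD, n = 2) of 10.2 ± 0.65 CPM for NC and 5.69 ± 0.75 CPM for KO (log2 fold change -0.85, SE 0.19, edgeR adjusted p = 0.00106), a call lost on deposited TPM. Hnf4a fell too (log2 fold change -0.995, SE 0.093, edgeR adjusted p = 4.27e-09). Ppara, the main fasting receptor of liver, held 3 and 5 counts (NC 1, NC 2) beside 3 and 6 (KO 1, KO 2), too few to be tested. Exons of Foxo1, Cebpb and Hif1a are partly shared with oppositely transcribed genes. Hif1a also shares 148 exonic bases with Gm49321 on the same strand.

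**Figure D5:**
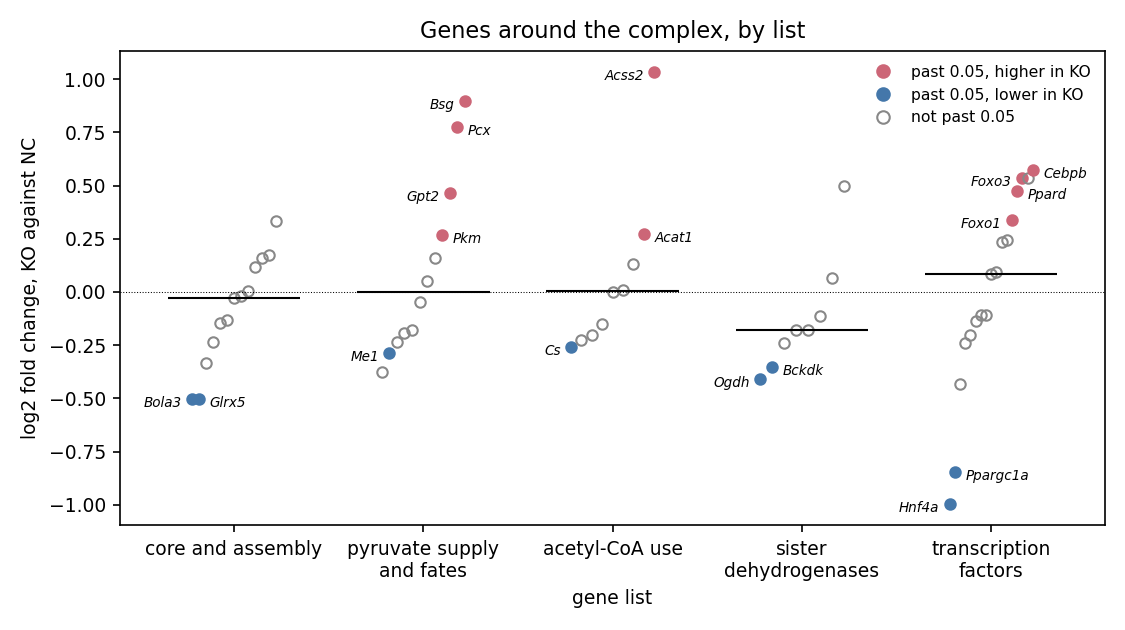
Log2 fold change between KO and NC (y axis) of the tested genes of 5 lists around the complex (x axis); filled points passed an adjusted p of 0.05 and are named, open points did not, and bars are list medians; 1 called gene of the acetyl-CoA list is not drawn. The medians lie between -0.18 and 0.084, and called genes point both ways in 3 of the 5 lists.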

How the data were processed

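RNA was sequenced from 4 samples of Hepa1-6 cells, 2 labelled NC and 2 labelled KO. Per the labels' protocols, DNA was digested away from TRIzol-extracted RNA and a kit that marks strand was used. The deposited expected counts, TPM and FPKM per gene came from the authors; the submitters' processing notes name FastQC, STAR, RSEM and DESeq2 and the build GRCm38 (mm10), with no versions. Whether counting used strand is not given in the sources used here. RSEM shares reads between similar transcripts, so counts can be fractional. Deposited TPM divide by a gene length, in bases (another column of the files), averaged over transcripts. FPKM were not used.

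Expected counts were rounded, which moved a total by at most 0.000188%. edgeR 4.0.16 (R 4.3.3) filtered genes (filterByExpr, 12510 kept), scaled them by TMM (factors 0.981 to 1.02) and compared the groups by quasi-likelihood with the group as the only term, two-sided, Benjamini-Hochberg over all genes tested, threshold 0.05. SE and 95% intervals come from the fitted weights and moderated dispersion, and cover counting error and the spread of these libraries only; PCR copies were not separated. On counts simulated for this comparison over 12351 genes, 79.1% of genes changed 1.5-fold and 100% of those changed 2-fold were called. Of 12151 unchanged genes 6 were called. The simulation gave every gene the same dispersion and changed few genes, none of them among the scarcest. These rates therefore need not hold for the real data or for scarce members. Replicates were not repeats of 1 library (chi-square per degree of freedom 7.09 for NC, 10.0 for KO, where sampling noise gives about 1). Alternatives were RLE scaling, DESeq2 1.42.0, robust quasi-likelihood, no filter, limma 3.58.1 on log2(TPM + 1) and log2(TPM + 0.1), the replicate number as a block, leaving out each library, and, added after seeing the data, TPM with 1 length per gene and kinase shares by other lengths.

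Gene IDs matched GENCODE M21 for 54723 genes without the version number. Coding transcripts of the members were compared with all GENCODE transcripts by BLAST (at least 90% identity over 100 bases): Pdha1 and Pdhb have long pseudogene matches, and Pdk1 and Pdk4 share only stretches of up to 178 bases with other genes. Promoter sequences are from RefSeq (GRCm38.p6), the entry nearest the GENCODE start. The members and lists were chosen with earlier results of these data known. Named are all 10 members, Acvr2a, up to 5 genes a list past 0.05 by lowest p, Dld, Mpc1, Mpc2, Ldha, Hif1a, Ppara, Ppargc1a and Bckdk, and the 5 genes nearest to Pdk1; Foxo1, Lias, Pdha2, Ppm1k and the cell type markers were named besides, after their values were seen. Among the genes this rule names, 1 is not reported here.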

Additional observations from a re-analysis of the deposited data

How the results depend on the processing

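Pdk1, Pdk2, Pcx, Bsg, Acss2, Hnf4a, Foxo3, Cebpb and Ppard kept their direction and their call under all 12 alternatives. The count of all genes past 0.05 was 5006 with the replicate block, 2158 on log2(TPM + 1) (1467 higher, 691 lower) and 2099 on log2(TPM + 0.1) (1427 higher, 672 lower), against 4741, and between 3507 and 4488 without a library; of the 2158, 2025 were among the 4741. The labels do not say that replicate numbers pair the libraries, and deviations of same-numbered libraries had a correlation of -0.0116. The block left 3 members higher and 3 lower.

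Members called lower numbered 3, but 1 with DESeq2, 0 in each of the 3 fits on TPM, and between 1 and 3 when a library was left out. In the list of core and assembly genes, called-lower genes went from 2 to 0 in both fits on deposited TPM and to between 1 and 2 without a library, and called-higher genes from 0 to between 0 and 1. For pyruvate supply and fates, called-higher genes went from 4 to 2 in both fits on deposited TPM, and called-lower genes from 1 to 2 with the robust fit and with the replicate block, to 0 in the 3 fits on TPM, and to between 1 and 2 without a library. For acetyl-CoA use, called-higher genes went from 3 to 1 with DESeq2 and with both deposited TPM fits and to between 1 and 3 without a library, and called-lower genes from 1 to 2 with the robust fit, to 0 in the 3 fits on TPM and to between 0 and 3 without a library. For the sister dehydrogenases, called-higher genes went from 0 to 1 with the robust fit and with the replicate block and to between 0 and 1 without a library, and called-lower genes from 2 to 0 on deposited TPM. For the transcription factors, called-lower genes went from 2 to 1 on deposited TPM and to between 2 and 4 without a library. Called-lower genes over all genes tested numbered 2282 in the main fit and 1554 with DESeq2. In the 3 fits on TPM they numbered 691, 672 and 1268. The median log2 fold change over the genes tested was 0.0596, 0.0701 and 0.0553 in those fits, in the same order, against -0.0037 in the main fit. The cause of the lower counts on TPM was not tested. A group left with 1 library is assumed to vary like the other.

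Signs turned for 3 genes that were never called: Dld (0.11 with both deposited TPM fits, 0.049 with 1 length per gene, 0.018 without NC 2, 0.010 without KO 1), Ldha (-0.055 to 0.146 without a library, negative without KO 1) and Hif1a (0.026 and 0.027 with the deposited TPM fits). By the length of the longest coding transcript, the kinase share of Pdk1 was 92.55% in NC and 89.7% in KO. On that scale the share of Pdk2 was 3.39% in NC and 6.31% in KO. That of Pdk4 in KO was 3.98%, against 2.94% with 1 mean length per gene. Depth allows no comparison of Pdk3, with 0 counts, and limits Pdk2 and Pdk4, with 22 to 86 counts a library.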

Other observations

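Of 9 listed genes of the sister 2-oxoacid dehydrogenases, which are built on the same plan as pyruvate dehydrogenase, 8 were tested, 0 higher and 2 lower, beside 19.7% and 18.2% of all genes tested, with a median log2 fold change of -0.18. Ogdh, the E1 of the 2-oxoglutarate dehydrogenase of the citrate cycle, fell, with means (± SD, n = 2) of 250.2 ± 1.7 CPM for NC and 188 ± 23 CPM for KO (log2 fold change -0.41, SE 0.095, edgeR quasi-likelihood adjusted p = 0.00125). Bckdk, the kinase of the branched-chain complex and a relative of the Pdk enzymes, fell, with means (± SD, n = 2) of 125 ± 5.7 CPM for NC and 98.0 ± 0.76 CPM for KO (log2 fold change -0.35, SE 0.092, edgeR adjusted p = 0.00354). Both calls were lost in the fits on deposited TPM. Ppm1k, the matching phosphatase and chosen here after its value was seen, had 0.50 (SE 0.21, edgeR adjusted p = 0.0629). The difference between the complexes was not tested.

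Of 11 genes that make, move or use acetyl-CoA 10 were tested, 3 higher and 1 lower, beside the same 19.7% and 18.2% over all genes, with a median of 0.0050. Acss2, which makes acetyl-CoA from acetate outside mitochondria, rose by 1.03 on the log2 scale, with means (± SD, n = 2) of 9.55 ± 0.69 CPM for NC and 19.6 ± 1.4 CPM for KO (SE 0.15, edgeR adjusted p = 5.77e-06), on a gene whose exons overlap those of Ggt7 and Gss on the other strand. Cs, citrate synthase, had -0.26 (SE 0.092, edgeR adjusted p = 0.0270), a call kept in 6 of 12 alternatives. Acat1 had 0.27 (edgeR adjusted p = 0.0496), kept in 5 of 12.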
